A study of Rattus norvegicus with 6 samples.

Results

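The ephrins, Eph receptors, semaphorins, plexins and neuropilins are families of guidance genes, and 41 of them could be read in this comparison of bone cells. They were taken from a table of 29215 array rows by gene name: every row whose annotation gives exactly 1 symbol of an Epha, Ephb, Efna, Efnb, Sema or Plxn gene, or Nrp1 or Nrp2, with the brightest row kept for each gene. The 41 stand among 14506 genes named in the same way. Long bone cells of 2 to 5 day old Sprague Dawley rats were allowed to adhere in wells carrying mouse prothrombin (PT), from which the clotting enzyme thrombin is cut, or bovine milk osteopontin (OPN), an acidic protein of bone matrix and a ligand of integrins. Total RNA of what adhered was hybridised to 6 Affymetrix Rat Gene 1.0 ST arrays, 3 for PT (replicates 1, 2 and 4) and 3 for OPN (replicates 2, 3 and 4). No array of cells before attachment was used here, and the labels do not say how many animals fed each array. The p-values thus reflect the scatter among these arrays, and that scatter may be purely technical.

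Ephrins are cell surface ligands. The A type is held in the membrane by a lipid anchor and the B type spans it, and both signal into the receptor-bearing cell and back into their own cell when they meet Eph receptor tyrosine kinases on a neighbour. Semaphorins are secreted or membrane-bound ligands of plexins, large receptors that act on small GTPases and the cytoskeleton, and the secreted class 3 semaphorins mostly need a neuropilin as the binding partner of the plexin. In bone both systems are known for contact between the cells that resorb bone and those that build it. Ephrin-B2 on osteoclasts meets EphB4 on osteoblasts, Sema4D of osteoclasts restrains osteoblasts through plexin-B1, and Sema3A of osteoblasts restrains osteoclast precursors through neuropilin-1.

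The promoters of 4 genes are shown because the comparison turns on them: Nrp2 and Efnb1, with the largest differences between the coatings, Epha2, the Eph receptor with the largest difference, and Nrp1, the relative of Nrp2 that did not pass the test. Each is the 250 bases before the RefSeq start in build GRCr8, on the plus strand, at chr9:71617004-71617253 for Nrp2, chr19:73256307-73256556 for Nrp1, chrX:68297279-68297528 for Efnb1 and chr5:158888379-158888628 for Epha2. Capitals mark matches, on either strand, to 1 of 6 motifs. The letters searched were TGTGGT for RUNX factors, TGANTCA for AP-1, TGACGTCA for the cyclic AMP response element (CRE), GGGCGG for the GC box, TATAAA for the TATA box and GAGGAAG for the myeloid factor PU.1. None of the matches shown overlaps another.
Nrp2: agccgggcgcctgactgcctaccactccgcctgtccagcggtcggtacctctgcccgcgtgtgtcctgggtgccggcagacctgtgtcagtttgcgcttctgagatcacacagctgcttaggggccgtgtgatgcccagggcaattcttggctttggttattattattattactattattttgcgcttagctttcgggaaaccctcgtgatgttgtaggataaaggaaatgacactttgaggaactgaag
Nrp1: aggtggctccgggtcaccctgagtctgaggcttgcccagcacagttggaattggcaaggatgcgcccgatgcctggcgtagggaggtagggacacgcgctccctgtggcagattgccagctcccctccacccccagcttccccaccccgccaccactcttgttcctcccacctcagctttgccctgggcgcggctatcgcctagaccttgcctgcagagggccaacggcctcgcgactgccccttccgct
Efnb1: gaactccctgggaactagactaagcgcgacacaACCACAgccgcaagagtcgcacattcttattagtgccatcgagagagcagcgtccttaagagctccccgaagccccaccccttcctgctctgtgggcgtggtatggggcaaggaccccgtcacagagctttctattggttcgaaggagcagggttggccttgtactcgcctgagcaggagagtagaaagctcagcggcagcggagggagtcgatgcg
Epha2: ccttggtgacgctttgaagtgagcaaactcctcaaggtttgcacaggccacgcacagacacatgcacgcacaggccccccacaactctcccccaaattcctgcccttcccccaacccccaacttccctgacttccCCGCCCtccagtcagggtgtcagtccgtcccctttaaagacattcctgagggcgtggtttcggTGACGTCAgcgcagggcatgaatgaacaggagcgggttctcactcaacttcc

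The Efnb1 window holds a RUNX match 217 bases before the start, and the Epha2 window a CRE 52 and a GC box 115 bases before it. The neuropilin windows hold no match to these motifs. The Nrp1 window is the richer in G and C, at 66.4% against 52.8% for Nrp2, with 14 and 13 CG pairs. Of the 41 genes 35 had a promoter in the RefSeq table. For these 35, 1 promoter was kept per gene, while the base of all 33469 promoters was not reduced to 1 per gene. A GC box lay in 16 of the 35 and in 30.5% of all 33469 promoters, RUNX in 5 of 35 and in 14.5%, PU.1 in 4 and in 10.2%, AP-1 in 1 and in 6.34%, CRE in 1 and in 1.59%, and TATA in 0 and in 12.9%. Among the 10 promoters of genes that rose on OPN, 6 held a GC box and 2 a RUNX match, Efnb1 and Sema7a. A CRE lay in 1, Epha2, a PU.1 match in 1, Efna1, and AP-1 and TATA in 0. A match is a run of letters and not evidence of a bound factor.

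Each value is the linear PLIER signal of 1 row, in the units of the deposited table, and differences are on the scale log2(signal + 16), OPN minus PT, which understates the change of dim rows. Folds are taken from these differences, so they are folds of signal + 16 and not ratios of signal. The median row of an array lay between 207.8 and 231.4 units. Correlations over rows were at least 0.988 within a coating and at most 0.979 between coatings, so no array stood apart from its group. No call of signal over background was available, and 19 of the 41 genes lay under the median row of the array in all 6 arrays, 2 of the 12 that rose among them. A gene that rose meets this condition only if it stayed dim on OPN too. Of the 12, Efnb1, Sema5a, Sema3d, Sema3a, Epha2, Ephb2 and Plxna2 lay under the median row in every PT array.

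Guidance genes that differed between the coatings did so in 1 direction. The co-receptor gene Nrp2 led, 3.16-fold higher on OPN in signal + 16, followed by the ligand genes Efnb1 (2.86-fold), Sema5a (2.54-fold) and Sema3d (2.51-fold). The order of the last 2 depends on the offset. With an offset of 1 the log2 difference was 1.47 for Sema3d and 1.44 for Sema5a. In limma's test over all rows, at an adjusted p (Benjamini-Hochberg) below 0.05, 12 of the 41 rose on OPN and 0 fell, with 17 and 0 at an unadjusted p below 0.05. At an unadjusted p below 0.05, 12.8% of all rows were higher and 4.82% lower. Over 1 row per named gene 2459 of 14506 were higher and 796 lower. That is the nearer base for each unadjusted count given here. At the adjusted threshold 5.05% of all rows rose and 0.77% fell, and over 1 row per named gene 7.62% and 1.12%. The 12 comprised 7 of 23 ligands and 5 of 18 receptors. The median log2 difference was 0.13 over the 41 genes and 0.03 over all rows, so most guidance genes lay near 0. In 17 genes every OPN array lay above every PT array and in 1, Nrp1, below, against 16.3% and 7.4% of all rows. Among the 14506 named genes these counts were 3138 and 1272. At least a 2-fold difference was reached by 4 genes, against 0.986% of rows and 236 of the 14506 named genes. With equal array medians or quantile normalisation 11 of the 12 were still called, Ephb2 being lost, while the share of all rows called higher was 4.1% and 4.66% and that called lower 1.92% and 2.55%. In RNA of whole wells, fewer cells of a type and less RNA per cell cannot be told apart.

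**Figure D1:**
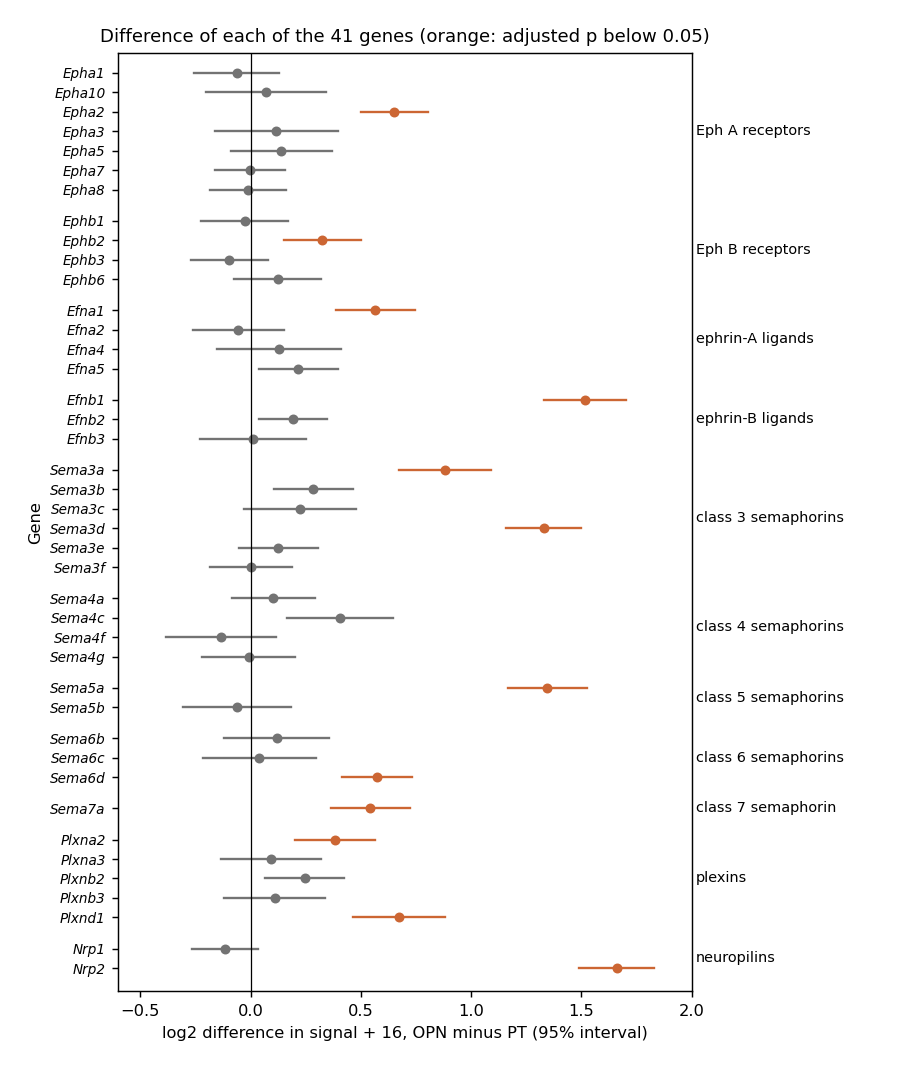
The log2 difference (OPN minus PT, on signal + 16) of each of the 41 guidance genes is plotted as a point with its 95% interval, grouped by family, with orange for an adjusted p below 0.05. The 12 orange genes all lie to the right of 0, from Ephb2 at 0.32 to Nrp2 at 1.66, and the grey ones between -0.13 and 0.41.

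Among ephrins, Efnb1 and Efna1 rose. Efnb1, a transmembrane ligand of EphB receptors that osteoblast lineage cells carry, had 91.6, 94.4 and 92.6 units on PT and 286, 328 and 274 on OPN. The PT arrays lay close together and far below the OPN arrays. The log2 difference was 1.52 (SE 0.08, adjusted p = 9.88e-06). Efna1, a lipid-anchored ligand of EphA2, had 247, 229.6 and 259 units on PT and 347, 395 and 369 on OPN, a 1.48-fold difference without overlap (log2 0.57, SE 0.08, adjusted p = 0.00315).

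Efnb2, the ephrin assigned to osteoclasts in the exchange with EphB4, did not pass the test. Its signals were 196, 209.8 and 212 units on PT and 243, 229.9 and 240.6 on OPN. All OPN arrays lay above all PT arrays, but by little, at a log2 difference of 0.19 (95% interval 0.04 to 0.35, adjusted p = 0.171). Efna2, another ephrin described on osteoclasts, had 242, 207 and 235 units on PT and 242, 209.6 and 205 on OPN. Its groups overlapped, with a log2 difference of -0.06 (95% interval -0.26 to 0.15). Efna4, Efna5 and Efnb3 were not called either, although the 3 OPN arrays of Efna5 (132 to 148 units) lay above its PT arrays (113 to 128). Efna3 was not analysed here.

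Of 11 Eph receptors measured, 2 rose. Epha2, a receptor kinase described on osteoblasts, had 169, 162 and 159 units on PT and 270.2, 270.1 and 256 on OPN. The groups lay far apart for their spread, with a 1.57-fold difference (log2 0.65, SE 0.07, adjusted p = 0.000525). Ephb2, a receptor of B ephrins, had 153, 175 and 154 units on PT and 197, 209.7 and 209 on OPN, and its log2 difference of 0.32 (SE 0.08, adjusted p = 0.0448) lay just inside the threshold. That call was lost without PT replicate 1 or 4 or without any 1 of the 3 OPN replicates, at adjusted p between 0.107 and 0.169, with both scalings of the arrays (adjusted p = 0.14 and 0.136) and with an offset of 1 (adjusted p = 0.0533).

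The other 9 Eph receptors measured were Epha1, Epha3, Epha5, Epha7, Epha8, Epha10, Ephb1, Ephb3 and Ephb6. Their differences ran from -0.10 for Ephb3 to 0.14 for Epha5, and the arrays of the coatings overlapped in every one of the 9. Ephb4, the osteoblast partner of Efnb2, and Epha4 and Epha6 were not analysed here, since no row carried their symbol alone in the annotation used. The EphB4 side of the best described exchange between osteoclasts and osteoblasts therefore has no value.

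**Figure D2:**
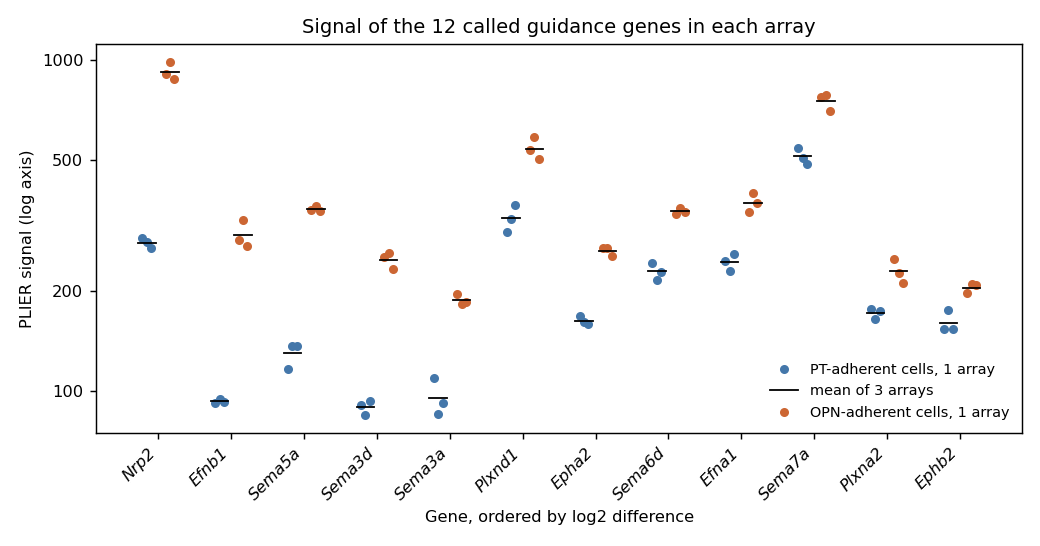
Each point is the PLIER signal of 1 array on a log axis for the 12 genes that rose on OPN, with PT in blue, OPN in orange and a bar at the mean of 3 arrays, ordered by log2 difference. In none of the 12 do the blue and orange points overlap, and Nrp2, Efnb1, Sema5a and Sema3d show the widest gaps.

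Semaphorins contributed 5 of the 12 genes, out of 16 measured: the secreted Sema3a and Sema3d and the membrane-bound Sema5a, Sema6d and Sema7a. Sema5a, a transmembrane semaphorin with thrombospondin repeats, had 117, 136 and 137 units on PT and 351, 361 and 350.2 on OPN. The 3 OPN arrays were close together and all far above PT (log2 difference 1.35, SE 0.08, adjusted p = 1.63e-05). Sema3d, a secreted class 3 semaphorin, had 90.8, 84.5 and 93.5 units on PT and 254, 262 and 233 on OPN. This was again a gap far wider than the spread of either group (log2 difference 1.33, SE 0.07, adjusted p = 1.33e-05).

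Sema3a, the secreted semaphorin through which osteoblasts restrain osteoclast formation, rose 1.84-fold. Its signals were 109, 85.1 and 91.8 units on PT and 197, 183 and 186 on OPN, without overlap (log2 difference 0.88, SE 0.09, adjusted p = 0.00055). Sema6d, a membrane ligand of plexin-A1, had 243, 217 and 229 units on PT and 343, 357 and 347 on OPN (log2 difference 0.57, SE 0.07, adjusted p = 0.00153). Sema7a, a lipid-anchored semaphorin that binds plexin-C1 and beta-1 integrins, lay above the median row of the array on both coatings. It had 544, 506 and 485 units on PT and 775, 784 and 699.7 on OPN (log2 difference 0.54, SE 0.08, adjusted p = 0.00387). For both of these genes the lowest OPN array lay well above the highest PT array.

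The remaining class 3 genes Sema3b, Sema3c, Sema3e and Sema3f were not called. Sema3b came nearest, with PT arrays of 295 to 331 units, OPN arrays of 360.2 to 408 and adjusted p = 0.081. Sema3e, the ligand of plexin-D1, had 135, 132 and 154 units on PT and 158, 158 and 147 on OPN, which overlap (log2 difference 0.13, 95% interval -0.05 to 0.30). Sema3f, the class 3 ligand that prefers neuropilin-2, had 397, 349 and 357 units on PT and 395, 365 and 345 on OPN. Its groups covered the same range, with a difference of 0.00 (95% interval -0.18 to 0.19) that turned negative with either scaling of the arrays (-0.063 and -0.074).

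Class 4 was the semaphorin class with 0 of its 4 measured genes called, and with 1 gene at an unadjusted p below 0.05. That gene was Sema4c, a membrane ligand of plexin-B2, with 191, 166 and 147 units on PT and 243, 234 and 204 on OPN in its brighter row (log2 difference 0.41, SE 0.11, adjusted p = 0.0673). Its arrays did not overlap there, but in a second row of the gene they did, at a log2 difference of 0.15 (adjusted p = 0.463). The first row was the brighter only through OPN, with a mean of 227 units against 192 for the second. On PT the first row averaged 168 units and the second 172, so the choice of row favours the larger difference. Sema4c was called with an offset of 64 (adjusted p = 0.0356), among rows with a mean signal of at least 100 (adjusted p = 0.0285), with an intensity trend (adjusted p = 0.0309) and without PT replicate 1 (adjusted p = 0.034). Sema4a, Sema4f, Sema4g, Sema5b, Sema6b and Sema6c lay between -0.13 and 0.12 without a call, with overlapping arrays. Sema4d, the osteoclast ligand of plexin-B1, and Sema3g, Sema4b and Sema6a were not analysed here.

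Of the neuropilins, Nrp2 rose and Nrp1 did not pass the test. Nrp2, the co-receptor for Sema3F and for the lymphatic growth factor VEGF-C, had 289.7, 281 and 271 units on PT and 905, 989 and 874 on OPN. The log2 difference was 1.66 (SE 0.07, adjusted p = 3.72e-06). Nrp1, the co-receptor for Sema3A and VEGF-A, had 881, 840.5 and 852 units on PT and 771, 807 and 792 on OPN. All 3 OPN arrays lay below all PT arrays, yet the log2 difference of -0.12 (95% interval -0.27 to 0.03) had an adjusted p of 0.42. With equal array medians it was -0.18 (adjusted p = 0.16).

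Of 5 plexins measured, Plxnd1 and Plxna2 rose. Plxnd1, the receptor that takes Sema3E without a neuropilin and is prominent in endothelium, had 303, 331 and 365 units on PT and 536, 584 and 501 on OPN. The lowest OPN array lay well above the highest PT array (log2 difference 0.67, SE 0.09, adjusted p = 0.0027). Plxna2, a receptor of class 6 semaphorins and, with neuropilins, of class 3, had 177, 165 and 175 units on PT and 250.2, 227 and 213 on OPN. Its log2 difference of 0.38 (SE 0.08) had an adjusted p of 0.0244, and the call was lost without PT replicate 1, 2 or 4 or without OPN replicate 2 or 3, at adjusted p between 0.0521 and 0.107.

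Plxnb2, a receptor of class 4 semaphorins, had 543, 539.7 and 523 units on PT and 620.3, 699 and 596 on OPN. The arrays did not overlap, at a log2 difference of 0.24 (95% interval 0.07 to 0.42, adjusted p = 0.133), and the gene was called with an intensity trend (adjusted p = 0.0498). Plxnb3, the receptor of Sema5A, had 141, 119.96 and 106 units on PT and 138, 125 and 135 on OPN, with overlap and a difference of 0.11. Plxna3 lay at 0.09 with overlapping arrays. Plxna1, Plxna4, Plxnb1 and Plxnc1 were not analysed here, which leaves the plexins paired here with Sema4D, Sema6D and Sema7A without a value.

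A list of 13 ligand and receptor pairs, drawn up to look for cross-talk between bone cells, was complete for 7. The list was chosen with earlier results of these data known, and whether each pair acts between bone cells was not tested. In 6 of the 7 the log ratio within an array separated the coatings. Each of the 6 holds a gene already called above with arrays that do not overlap, so the separation largely restates those calls. The share of other gene pairs that separate in this way was not computed. Efnb1 gained 1.19 (log2) on its receptor Ephb2, Sema3a 0.998 on Nrp1, and Sema5a 1.24 on Plxnb3. Epha2 gained on Efna2, Plxnd1 on Sema3e and Nrp2 on Sema3f, the log ratio of ligand to receptor moving by -0.71, -0.55 and -1.66. In these 6 the within-array ratio, which is unaffected by making the array medians equal, did not overlap between the coatings. For Sema4c and Plxnb2 the ratio changed by 0.16 and its arrays overlapped. Nrp2 against Nrp1, a contrast added after their values were seen, changed by 1.78 with SDs of 0.036 on PT and 0.075 on OPN (n = 3 each). An exact permutation test, two-sided, gave p = 0.1 for each of the 6 pairs and for the neuropilins, the smallest p that 3 against 3 arrays allow, and p = 0.3 for Sema4c and Plxnb2. Adjusted over the 8 ratios these were 0.114 and 0.3, so none passes.

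**Figure D3:**
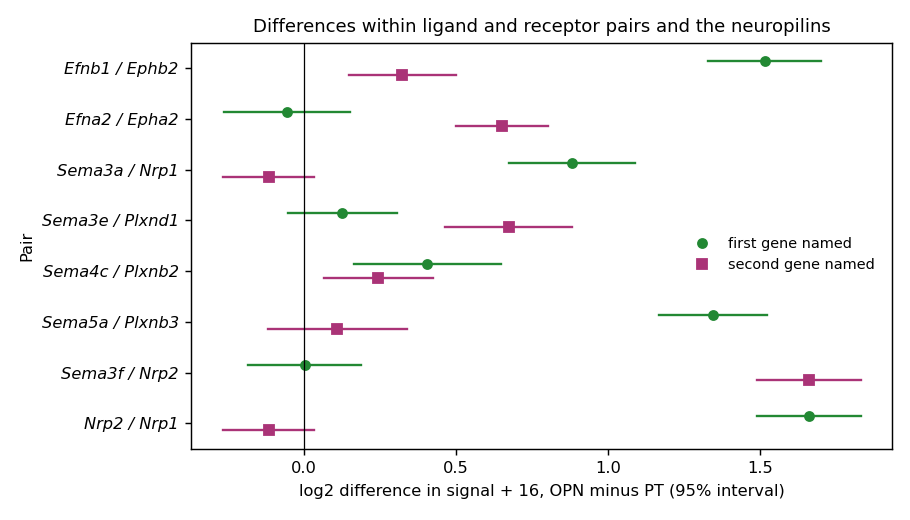
Log2 differences (OPN minus PT, on signal + 16) with 95% intervals are drawn for both genes of the 7 complete pairs and for the neuropilins, the first gene named as a green circle and the second as a purple square. The intervals of a pair overlap for Sema4c and Plxnb2 and for no other pair drawn.

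Within these pairs the gene that rose was the ligand in some and the receptor in others. Efnb1, Sema3a and Sema5a are ligands, and Epha2, Plxnd1 and Nrp2 receptors. In Efnb1 and Ephb2 both genes passed the test, and in the other 5 complete pairs with a called gene the partner did not. For incomplete pairs, Sema6d, Sema7a and Plxna2 rose and Efnb2 did not pass, as given above.

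A list of 16 receptors that bind semaphorins or partner their receptors, outside the plexins and neuropilins, had 15 measured. On OPN 5 rose and 0 fell, with 6 and 1 at an unadjusted p below 0.05, and the median was 0.08. They were Ptprz1 (log2 difference 1.98, adjusted p = 6.56e-06), a receptor phosphatase with a less certain place in this list, the VEGF receptor genes Kdr (1.15) and Flt1 (0.61), and the integrin genes Itgb1 (0.72), the beta-1 chain of the Sema7A receptor, and Itga1 (0.69), named because it completes the 5. Kdr is also in the endothelial marker list. Trem2 and Tyrobp, the myeloid partners of plexin-A1 in the Sema6D response, had overlapping arrays, at -0.15 (adjusted p = 0.54) and 0.15 (adjusted p = 0.47), and were named for that partnership.

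The netrin, Slit and related guidance systems were followed in a list of 32 genes, which shares Robo1 with the receptors above. Of the 26 measured, 8 were higher on OPN and 0 lower by the test (9 and 0 at an unadjusted p below 0.05), and the median was 0.08. The netrin receptor genes Unc5b (log2 difference 1.74, adjusted p = 8.57e-06) and Neo1 (1.41), the ligand gene Slit3 (1.19) and its receptor Robo2 (0.86) had the smallest p. Unc5b had 95.2, 87.2 and 97.0 units on PT and 356, 383 and 309.9 on OPN.

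Of 60 listed genes that carry the signal inside the cell, the array gave values for 55, and 9 rose and 1 fell (23 and 4 at an unadjusted p below 0.05), the median being 0.13. Rnd3, a small GTPase that acts on the cytoskeleton, rose most (log2 difference 1.96, adjusted p = 3.41e-06), from 81.9, 77.0 and 87.7 units on PT to 374, 397 and 331 on OPN. The Src family kinase genes Fyn (0.90) and Yes1 (1.16) and the plexin-associated exchange factor gene Farp2 (0.90) followed by p. Itsn1, an exchange factor and endocytic adaptor gene, fell by 0.29 (adjusted p = 0.0404), a call lost without any 1 of the 6 arrays (adjusted p between 0.0753 and 0.166). The small GTPase genes Rac1 and Cdc42, named outside the naming rule, were not called. Every OPN array of Rac1 lay above every PT array (log2 difference 0.21, adjusted p = 0.159), while the arrays of Cdc42 overlapped (0.04).

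Markers of several cell types moved on the same arrays. Signals summed over 13 measured osteoblast markers of 14 ran from 11410 to 12400 units on PT and from 57950 to 64740 on OPN, and all 13 rose (median log2 difference 2.40). All 11 stromal fibroblast markers rose too (median 1.95; sums of 2079 to 2164 and 9341 to 10130 units). Of 10 measured osteoclast markers 7 rose (median 1.24; 11630 to 13960 and 29370 to 32920), and of 12 endothelial markers 8 rose (median 0.60; 2383 to 2522 and 3556 to 3772). Of 13 macrophage markers 8 fell and 0 rose, with 9 and 0 at an unadjusted p below 0.05 (median -0.53; 14450 to 15180 and 10370 to 11120). The 5 megakaryocyte and platelet markers measured all rose (median 0.74; 2001 to 2095 and 3467 to 3761).

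Markers of nerve and Schwann cells, which use the same guidance genes in nervous tissue, were not called. Of 7 measured, 0 passed in either direction, also at an unadjusted p below 0.05. In 2 of them, Mbp and Gfap, every OPN array lay below every PT array. The sums over the 7 were 1509 to 1552 units on PT and 1509 to 1513 on OPN. Granulocyte, B lineage and T and NK markers had 0 calls as well, with 3, 1 and 1 higher at an unadjusted p below 0.05. Chondrocyte markers had 2 of 9 higher, muscle and pericyte markers 3 of 8 higher, and erythroid markers 2 of 7 lower. No marker was at 0 on any array. The part of any of these cell types in the differences of the guidance genes was not tested.

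**Figure D4:**
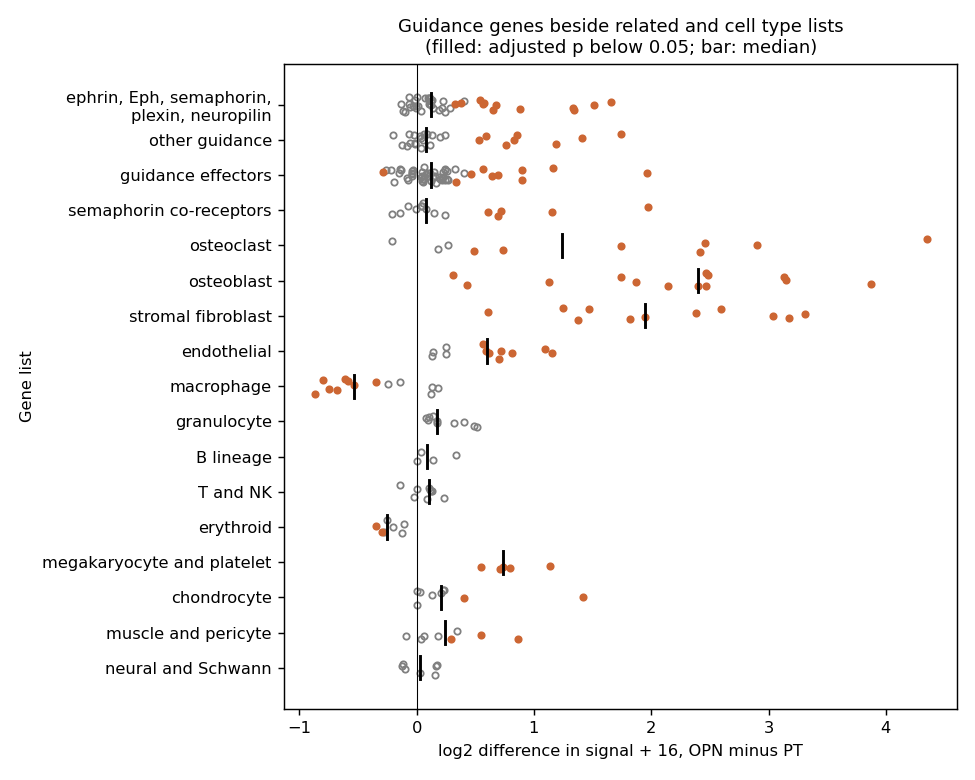
Each point is the log2 difference (OPN minus PT, on signal + 16) of 1 gene, in rows for the 41 guidance genes, the 3 related lists and 13 cell type lists, filled where the adjusted p is below 0.05, with a bar at the median. The median of the guidance genes (0.13) stands near 0 with a tail to the right, while the osteoblast (2.40) and stromal (1.95) medians lie far to the right and the macrophage median (-0.53) to the left.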

How the data were processed

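RNA of 6 samples was measured on 1-colour arrays after labelling 300 ng. Per the submitters' processing notes, the authors summarised probe intensities with Affymetrix Expression Console and PLIER. The deposited intensity values are linear, none lies below 0, while for its background correction, scaling, software versions and genome build the entry is not given in the sources used here. Each array has its own column.

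Gene names come from the platform annotation, in which 15310 rows had 1 symbol, 323 several and 13582 none. The 41 genes came from 42 rows (Sema4c had 2), and all 41 matched the GRCr8 gene table with 0 symbols changed. Values entered limma 3.58.1 (lmFit, eBayes; R 4.3.3) as log2(intensity + 16), over all 29215 rows, with a term for the coating, no filter and no block. The test was checked on simulated arrays. Groups come from the sample titles. Genes named with values in every array are the called ones and those of 13 ligand and receptor pairs. Of other lists up to 4 called genes per direction with the smallest p are named, with exceptions stated. Members, lists and pairs were chosen with earlier results of these data known. Alternatives were other offsets (1 and 64), scalings, a filter at a mean signal of 100, an intensity trend, the mean of a gene's rows, a replicate block and leaving out each array. The number of arrays limits the precision.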

Additional observations from a re-analysis of the deposited data

How the results depend on the processing

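The count of guidance genes that rose, 12, ran from 10 to 11 when 1 array was left out and from 11 to 15 under the other settings without a block, and 0 fell under all 14 settings. Sema3b joined the calls with an offset of 64, with rows of mean signal at least 100 and with an intensity trend. Counts called without 1 array were 8 in each case for the other guidance genes, 8 to 9 of 10 for the effectors, and 5 for the co-receptors. Numbers 2 and 4 were used for replicates of either coating without a stated link between them, and deviations of same-numbered arrays correlated at -0.08 and 0.07. In the fit with a replicate block 7 guidance genes, 4 effectors and 3 co-receptors were called, Efna1, Ephb2, Plxna2, Plxnd1 and Sema7a being lost, and Efna2 turned to 0.0125. In that fit replicate 1, present on PT alone, and replicate 3, present on OPN alone, add nothing to the coating difference. It rests on replicates 2 and 4 of each coating. The fit also leaves fewer residual degrees of freedom. Sema3f turned to -0.0629 with equal medians and -0.0738 with quantile normalisation, and ran from -0.0468 to 0.0563 with 1 array left out, negative without PT replicate 2, PT replicate 4 or OPN replicate 2. The cause was not tested. Of 490 gene values under alternatives, 453 kept direction and side of the threshold. These values include genes of the 3 related lists, and a gene that stayed uncalled counts as kept. Ephb2 kept its call in 5 of the 14 settings and Plxna2 in 8. Nrp2, Efnb1, Sema5a, Sema3d, Sema3a, Epha2 and Sema6d were called under all 14. Efnb1, Sema3d and Sema3a passed the filter at a mean signal of 100 only through their OPN arrays, with PT means of 92.9, 89.6 and 95.3 units. That setting is therefore no separate support for these genes. Rows near background cannot be told from dim expression.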
